A study of Mus musculus with 12 samples.

Results

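Regulatory T cells (Tregs) without the cytokine gene Il10 were set against wild-type Tregs, as measured on Affymetrix mouse expression arrays. The members were the 3 arrays labelled as Il10 knockout (Il10_KO) and the 3 labelled as wild type (WT), which make 6 of the 12 arrays in the series and were taken by genotype label alone. The other 6 arrays held 3 double knockouts of Il10 and Ebi3 (DKO) and 3 knockouts of Ebi3 (Ebi3_KO). All cells were T cells sorted by flow cytometry from mice that had received no treatment, and RNA was taken from them fresh. Il10_KO and WT differ in the labels by the Il10 genotype alone. The labels give no strain, age, sex, targeted allele or sorting marker. They do not say whether replicates came from separate animals, so p-values measure only the spread between these samples, which may be technical. Each replicate number is also a labelled batch, and each of the 3 batches holds 1 array of every genotype, so differences were read within batches. The number of arrays limits the precision of every value below.

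Tregs hold back other immune cells, and interleukin 10 (IL-10) is one of the secreted proteins they do it with, above all in the gut wall. IL-10 binds a receptor made of the chains Il10ra and Il10rb, which acts through the kinases Jak1 and Tyk2 and the transcription factor Stat3. Stat3 in turn switches on Socs3, which damps further cytokine signalling. Mice that lack IL-10 are known for spontaneous inflammation of the intestine.

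The cells carried the transcripts that mark Tregs on all 6 arrays. Foxp3, the transcription factor that defines these cells, read signals of 6090.3, 5900.4 and 5301 on the Il10_KO arrays, against 7362, 6153 and 5391 on the WT arrays of batches 1 to 3. The signals of the groups overlapped, and the log2 difference was -0.12 ± 0.149 (SE, n = 3 each, limma adjusted p = 0.883). Ctla4, an inhibitory receptor, differed by 0.27 (adjusted p = 0.774 in the same limma fit), and Il2ra, the high-affinity chain of the IL-2 receptor, by 0.03 (adjusted p = 0.982 in the same limma fit). In whole-population RNA such as this, fewer cells of a type and less RNA per cell cannot be told apart.

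The probe set of Il10 itself did not separate the groups. It read 2038, 1976 and 1028 in Il10_KO, against 185, 2939.8 and 484 in WT. The WT arrays held both the highest and the lowest of these 6 signals, and the difference had a different sign in batch 2 (-0.57) from batches 1 and 3 (3.33 and 1.06). The fitted log2 difference was 1.27 ± 0.528 (adjusted p = 0.633, limma), or 0.28 without WT replicate 1 and 2.05 without WT replicate 2. Since no label describes the Il10 allele, this probe set checks neither the genotype nor the loss of the protein. Ebi3, which both groups should carry intact, read 1063, 2057 and 1899.6 in Il10_KO, against 1159, 1728 and 1726 in WT.

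Few probe sets separated Il10_KO from WT, and most of those with a gene name lie on chromosome 1, where Il10 lies. Of 31235 probe sets tested with limma, 12 passed an adjusted p of 0.05 (0.0384%). Of these 7 were higher in Il10_KO (0.0224%) and 5 were lower (0.016%). In all 12 the 3 signals of one group lay wholly above the 3 of the other, which held for 3.14% of the tested probe sets in the higher direction and 2.74% in the lower. The 12 probe sets covered 9 named genes, 6 of them on chromosome 1. In all, 2398 probe sets had an unadjusted p under 0.05, against 1561.75 that chance alone would give. That number was 1615 in the 6 arrays alone, and 618, below the chance number, without the replicate block. The median difference over the 13899 genes tested was -0.00206 on the log2 scale. Every array had been scaled to the same trimmed mean, so this value does not show whether the groups differed in total RNA.

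The 2 genes with by far the smallest p were Ctse and Ap1s3. Ctse encodes cathepsin E, an aspartic protease of endosomes that immune cells use in handling antigen. Its signal was 15418, 20750.1 and 18352 in Il10_KO, against 1211, 1484 and 1407 in WT. Every Il10_KO array stood far above every WT array, and the log2 difference was 3.71 ± 0.208 (SE; 13.1-fold, adjusted p = 1.64e-06, limma). A second Ctse probe set was dim, with means of 35.5 in Il10_KO and 70.3 in WT, and carried no such difference (-0.59, adjusted p = 0.788, limma).

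Ap1s3 encodes a small subunit of AP-1, the clathrin adaptor that packs cargo into vesicles at the trans-Golgi network and endosomes. Its signal was 1324, 1769 and 1842 in Il10_KO, against 85.6, 148 and 141 in WT. The median over all probe sets was 87.7, 70.3 and 61.3 on the Il10_KO arrays and 79.7, 61.7 and 64.5 on the WT arrays. Ap1s3 thus stood above the median on every array, and far above it in Il10_KO. The log2 difference was 3.54 ± 0.197 (11.6-fold, adjusted p = 1.64e-06, limma). These 2 genes also passed whichever single array of the 12 was left out, with a log2 difference of 3.57 to 3.83 for Ctse and 3.40 to 3.67 for Ap1s3.

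No other member of either gene's family passed. Of 20 measured genes of lysosomal and endosomal proteases and their inhibitors, Ctse was the one that passed. The list's median of 0.0943 hung on single arrays, with -0.00819 without Il10_KO replicate 3, 0.04 without WT replicate 3, 0.054 without Il10_KO replicate 1 and 0.198 without Il10_KO replicate 2. Next by p stood Cst7, which encodes the inhibitor cystatin F (0.73 ± 0.187, adjusted p = 0.376, limma), and Ctsl, which encodes cathepsin L (0.74 ± 0.21, adjusted p = 0.447, limma). Ctss, the gene of cathepsin S, read 0.20 (0.00677 without WT replicate 3 and 0.38 without WT replicate 1). Of 19 measured subunits of the adaptors AP-1 to AP-3, Ap1s3 alone passed, and the median was -0.0126 (-0.071 to 0.0659 without 1 of the 6 arrays, of either sign). The other small subunits of AP-1 read -0.27 (Ap1s1) and 0.02 (Ap1s2). Over all genes tested with 1 probe set each, the share that passed was 0.0432%.

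**Figure D1:**
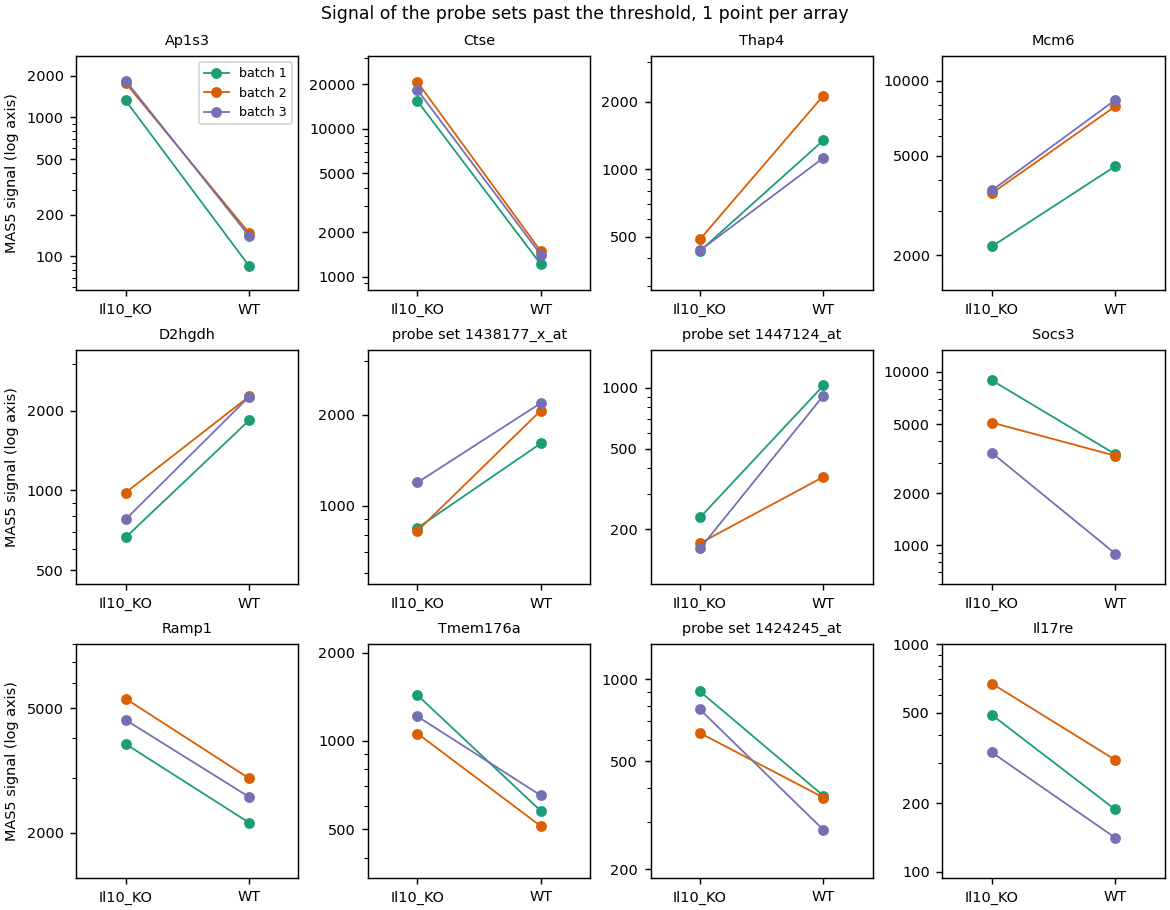
MAS5 signal, on a log axis that differs between panels, of the 12 probe sets that passed the threshold, on the 3 Il10_KO arrays (left of each panel) and the 3 WT arrays (right). Lines join arrays of 1 batch. Ctse lay between 15418 and 20750.1 in Il10_KO and between 1211 and 1484 in WT, and no panel shows overlap between the groups.

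On chromosome 1, 4 more genes passed, 1 higher and 3 lower. Ramp1, whose protein escorts and shapes the CGRP receptor, rose. Its signal was 3839, 5355 and 4581 in Il10_KO, against 2155, 2984 and 2603 in WT. The arrays followed their batches closely, and the difference was 0.83, 0.84 and 0.81 within batches 1, 2 and 3 (fitted 0.83 ± 0.126, adjusted p = 0.0458, limma). A second, dimmer Ramp1 probe set differed by 2.02 (239, 307 and 315 in Il10_KO, against 68.4, 92.3 and 23 in WT) without passing (adjusted p = 0.0862, limma).

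Mcm6, which encodes a subunit of the helicase that opens DNA for replication, fell. Its signal was 2166, 3537 and 3634 in Il10_KO, against 4541, 7892 and 8367 in WT. Each batch showed about the same distance (-1.06, -1.15 and -1.20), and the fitted difference was -1.14 ± 0.14 (2.2-fold lower, adjusted p = 0.0123, limma). The second Mcm6 probe set ran the same way, at -0.92 (adjusted p = 0.198, limma). The other 5 helicase subunits lay between -0.32 and -0.10 and did not pass. They were Mcm7 (-0.32), Mcm3 (-0.19), Mcm2 (-0.14), Mcm5 (-0.11) and Mcm4 (-0.10). Mcm10, which is no subunit of the ring but a factor needed to start replication, read -0.48 (-0.30 without Il10_KO replicate 3) and did not pass.

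Thap4 encodes a protein with a zinc-binding THAP domain and a nitrobindin-like domain that binds haem. The probe set that fell read 432, 487 and 434 in Il10_KO, against 1347, 2134 and 1124 in WT. The Il10_KO arrays were tightly grouped and the WT arrays were not, and the log2 difference was -1.67 ± 0.2 (3.19-fold lower, adjusted p = 0.012, limma). Another Thap4 probe set of similar brightness overlapped between the groups (553, 840.1 and 638 in Il10_KO, against 765, 958 and 771 in WT) and differed by -0.30. D2hgdh, whose mitochondrial enzyme oxidises D-2-hydroxyglutarate, gave the same picture. One probe set read 665, 981 and 778 in Il10_KO, against 1837, 2262 and 2255 in WT (-1.38 ± 0.174, 2.6-fold lower, adjusted p = 0.013, limma). The other overlapped and differed by -0.58 (adjusted p = 0.635, limma).

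On other chromosomes 3 genes passed, all higher in Il10_KO. Socs3, on chromosome 11, encodes the inhibitor of cytokine receptors that IL-10 itself induces through Stat3. The probe set that passed read 8948, 5107 and 3416 in Il10_KO, against 3357, 3288 and 897 in WT. The lowest Il10_KO signal stood just above the highest WT signal, and the log2 difference was 1.32 ± 0.191 (2.49-fold, adjusted p = 0.037, limma). The remaining Socs3 probe sets differed by 0.79 and 0.95 and did not pass. The brightest of them read 14414, 12359 and 6154 in Il10_KO, against 7243, 6873 and 4284 in WT, with overlap across batches but a higher Il10_KO array within each.

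Il17re and Tmem176a, both on chromosome 6, belong to genes associated with type 17 immune responses. Il17re encodes a receptor chain for IL-17C, and its probe set read 489, 672 and 334 in Il10_KO, against 188, 310.0 and 141 in WT (1.17 ± 0.18, adjusted p = 0.0458, limma). A second Il17re probe set differed by 0.77 (adjusted p = 0.376, limma), and another, dim one by -0.07. Tmem176a encodes a channel-like protein of intracellular membranes, known to be expressed with its neighbour Tmem176b in dendritic cells and in T cells of the type 17 lineage. The Tmem176a probe set that passed read 1431, 1059 and 1211 in Il10_KO, against 577, 512 and 651 in WT (1.06 ± 0.162, adjusted p = 0.0458, limma). Its other 2 probe sets gave 0.92 and 0.73 without overlap between the groups. Tmem176b, the neighbour, read 2641, 1780.1 and 4081 in Il10_KO, against 1147, 1061 and 1997 in WT (0.98 ± 0.193, adjusted p = 0.181, limma). Il10_KO was thus above WT in every batch for both genes of the pair, by 0.74 to 1.28 for these 2 probe sets.

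The Tmem176 genes lie head to head. The stretch between their nearest annotated starts is shown because these neighbours differed in the same direction. It spans 108 bases at chr6:48841375-48841482 of GRCm38.p6 (RefSeq), given on the strand of Tmem176a, with Tmem176b leaving to the left on the other strand. It has no capitals since no motif was marked in it.
Tmem176b to Tmem176a: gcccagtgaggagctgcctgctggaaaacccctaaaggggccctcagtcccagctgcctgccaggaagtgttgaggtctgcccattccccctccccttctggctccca

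Stat3 binds DNA of the form TTCNNNGAA, and the 250 bases before each annotated start were searched for it (the motif reads the same on both strands). It was present in 2197 of 27025 genes with a RefSeq promoter entry (8.13%). Of the 28 genes of smallest p that have a name, 22 had an entry, and 3 of these held the motif. They were Socs3, where it began 154 bases before the start, Thap4 (72 bases) and Brd2, a reader of acetylated histones (145 bases). The sequences are shown since Socs3 is the known Stat3 target among the genes that passed. Capitals mark the motif, and each stretch runs 5′ to 3′ on the gene's strand, the minus strand in all 3 cases, at chr11:117969487-117969545, chr1:93731965-93732023 and chr17:34120012-34120070 (GRCm38.p6).
Socs3: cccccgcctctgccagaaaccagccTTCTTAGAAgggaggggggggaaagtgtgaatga
Thap4: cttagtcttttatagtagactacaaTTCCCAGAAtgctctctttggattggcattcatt
Brd2: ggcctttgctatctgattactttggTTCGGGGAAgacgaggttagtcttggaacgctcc
A match of these letters is a description of the sequence and not a measured binding site. No promoter of Ctse or Il10 is shown.

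Of the 12 probe sets 3 carry no single gene name. Probe set 1447124_at read 228, 171 and 161 in Il10_KO, against 1024, 362 and 913 in WT (-1.82, adjusted p = 0.037, limma). Probe set 1438177_x_at, annotated to several symbols, read 843, 825 and 1192 in Il10_KO, against 1606, 2064 and 2185 in WT (-1.03, adjusted p = 0.0365, limma). Probe set 1424245_at ran the other way, with 902, 635 and 775 in Il10_KO, against 373, 368 and 279.6 in WT (1.13, adjusted p = 0.0458, limma).

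The calls beyond Ctse and Ap1s3 depended on the model and on single arrays. Without the replicate block limma called these 2 alone. Without 1 array at a time the number of calls was between 2 (without Il10_KO replicate 1 or Il10_KO replicate 3) and 7 (without WT replicate 1, DKO replicate 1, DKO replicate 3 or Ebi3_KO replicate 3), and each of the 12 arrays mattered by over 1.5 times. D2hgdh and Thap4 passed in 8 of these 12 fits, Mcm6 in 7 and Socs3 in 2 (without WT replicate 2 and without Il10_KO replicate 2). Ramp1, Il17re and Tmem176a passed in 0 of them, with adjusted p of 0.0592 to 0.344, 0.0679 to 0.405 and 0.0537 to 0.405 in limma, although their log2 differences stayed at 0.81 to 0.84, 1.07 to 1.23 and 0.95 to 1.14.

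Among the genes next in order of p, chromosome 1 was again frequent, here on the lower side. Stk25, which encodes a kinase of the Golgi apparatus and lies near Thap4 and D2hgdh in gene order, read 149.8, 222 and 117 in Il10_KO, against 736, 512 and 358 in WT (-1.59, adjusted p = 0.0572, limma). Kdm5b, a histone demethylase gene, read 252, 264 and 183 in Il10_KO, against 532, 1013 and 396 in WT (-1.31, adjusted p = 0.0716, limma). Its brighter probe set read -0.29. Gin1 had -2.10 (adjusted p = 0.0662, limma), and its 3 Il10_KO signals of 4.4, 5.5 and 28.8 were all dim. Bcl2, which protects cells from apoptosis, differed by -1.53 on one probe set (adjusted p = 0.121, limma), and by -0.32 on its brightest. Scly, a selenocysteine lyase gene, differed by -1.71 on one probe set and by 0.06 on its brightest. For Thap4, D2hgdh, Kdm5b, Gin1, Bcl2 and Scly the probe sets of 1 gene therefore disagreed in size.

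Genes higher in Il10_KO outside chromosome 1 that came next, none of which passed, included Tgm2, Gpr183, Klrb1b, Brd2, Asb2, Nnt and Casp4. Tgm2, which encodes a protein-crosslinking transglutaminase, lay higher on all 5 of its probe sets, by 0.51 to 1.36. Its brightest read 1723, 2457 and 4148 in Il10_KO, against 552, 1014 and 1767 in WT (adjusted p = 0.164, limma). Gpr183, the receptor for oxysterols that guides lymphocyte movement, read 4537, 7644 and 3866 in Il10_KO, against 2601, 3299.6 and 2448 in WT (0.89, adjusted p = 0.162, limma). Nnt, a mitochondrial transhydrogenase gene, read 1343, 958 and 1263 in Il10_KO, against 884, 456 and 588 in WT, and 0.90 and 1.09 on its 2 probe sets. Casp4, an inflammatory caspase gene, differed by 0.85 and Klrb1b, an inhibitory receptor gene of natural killer cells, by 1.28. On the lower side stood Erdr1 (-1.03), 1110032F04Rik (-0.70), Xiap, an inhibitor of caspases (-0.62), and Igf2bp3, an RNA-binding protein gene (-1.50), with adjusted p from 0.163 to 0.224 in limma. Vcam1, an adhesion molecule of stromal cells and macrophages, had 1.58 on one dim probe set and 0.20 on its brightest.

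The DKO and Ebi3_KO arrays share no array with Il10_KO and WT. They gave a second reading of Il10 loss, in cells that all lack Ebi3. Both comparisons came from the same fit and share each probe set's estimate of the spread, so their calls are not independent. In DKO against Ebi3_KO 6 probe sets passed (0.0192%). These 6 were all among the 12, which makes 6 of 12 and 6 of 6. They were the probe sets of Ctse (3.30), Ap1s3 (2.95), Thap4 (-1.90), D2hgdh (-1.55) and Il17re (1.65), and 1447124_at (-1.80). Ctse read 13939, 18622 and 19483 in DKO, against 1035, 3159 and 1554 in Ebi3_KO. Il17re read 576, 1028 and 556 in DKO, against 181, 335 and 143 in Ebi3_KO (adjusted p = 0.00291, limma). Mcm6 (-0.77), Ramp1 (0.80) and Tmem176a (0.81) ran the same way there without passing. Over all tested probe sets DKO minus Ebi3_KO had a median of 0.0358, with 1068 higher and 478 lower at an unadjusted p under 0.05. These 1546 compare with 1561.75 by chance.

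Socs3 was the named gene that passed in Il10_KO against WT and read near 0 in DKO against Ebi3_KO. Its probe set read 6519, 4582 and 1863 in DKO, against 6143, 3864 and 1452 in Ebi3_KO (0.23, adjusted p = 0.95, limma). Of the probe sets without a single gene name, 1438177_x_at (-0.16) and 1424245_at (-0.18) also read near 0 in DKO against Ebi3_KO. The test of the difference between both comparisons did not pass for Socs3 (-1.09), 1438177_x_at (0.86) or 1424245_at (-1.31). It passed for 0 of the 31235 probe sets (0%), with 1232 at an unadjusted p under 0.05 against 1561.75 by chance.

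Of the 28 named genes of smallest p, 11 lie on chromosome 1 (3 higher and 8 lower in Il10_KO) and 17 elsewhere. All 11 had the same sign in DKO against Ebi3_KO, with a median distance between both differences of 0.307. Of the 17 others 13 had the same sign, with a median distance of 0.804. Over all genes tested, each read by its probe set of highest mean signal, 58.3% had the same sign in both comparisons, with a median distance of 0.211. The 28 were picked for small p in Il10_KO against WT and read by their probe set of smallest p. Their distances are therefore not directly comparable with that of all genes. The genes with opposite signs were Vcam1 (1.58 against -0.45), Igf2bp3 (-1.50 against 0.16), Camp (-1.60 against 0.78) and Ngp (-1.37 against 1.50), of which Camp and Ngp encode granule proteins of neutrophils. Ngp read 322, 181 and 1838 in Il10_KO, against 1277, 556 and 2925 in WT, and the difference between both comparisons was 2.87 (adjusted p = 0.184, limma).

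**Figure D2:**
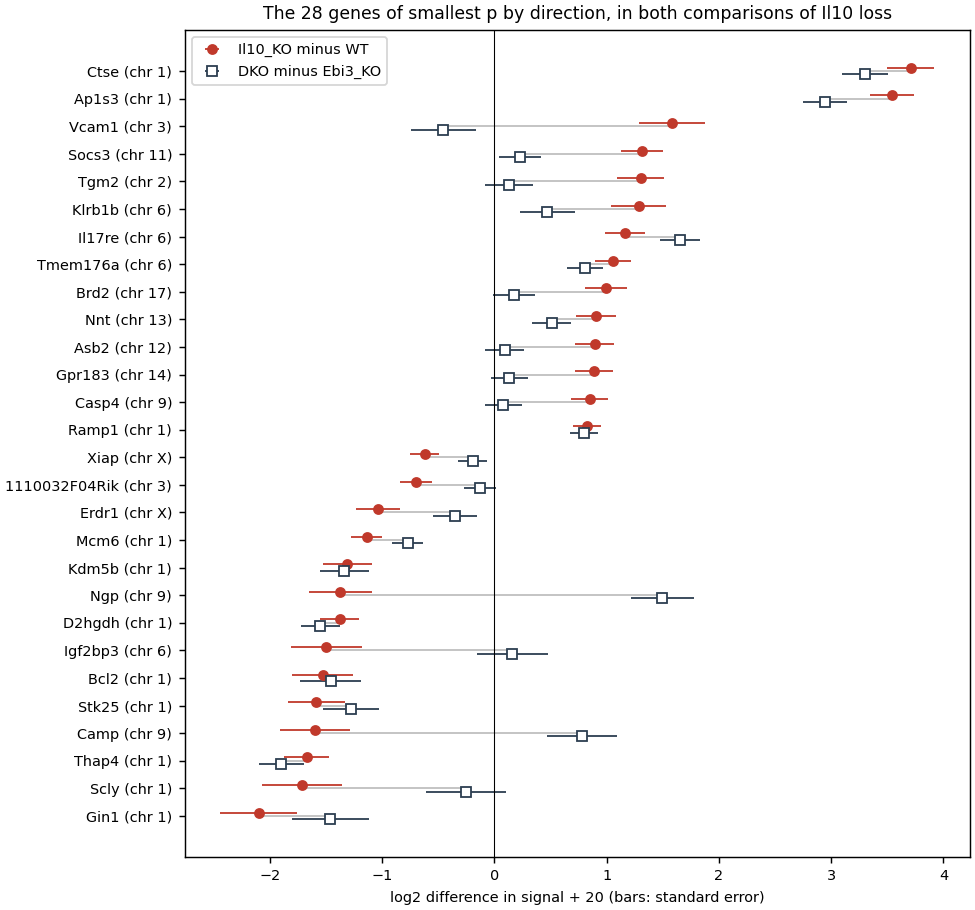
Log2 difference (signal + 20) with its standard error for the 28 named genes of smallest p, in Il10_KO minus WT (filled circles) and in DKO minus Ebi3_KO (open squares), which share no array. Ctse (3.71 and 3.30), Ap1s3 (3.54 and 2.95) and the other chromosome 1 genes keep their sign in both, while Ngp (-1.37 and 1.50) and Vcam1 (1.58 and -0.45) do not.

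Chromosome 1 carried more genes of small p than the other chromosomes. With 1 probe set per gene, 102 of its 802 tested genes (12.7%) had an unadjusted p under 0.05, against 6.17 to 10.1% on chromosomes 2 to 19 and X. In the order of protein-coding genes, Il10 is number 677 of 1204 on the chromosome. The share was 17.4% between 150 and 300 genes before Il10, 18.1% within 150 genes before it, 18.1% within 150 genes after it and 8.05% between 150 and 300 genes after it. Beyond 300 genes it was 9.7% before and 9.46% after. Measured in the same order, Ctse is 9 genes from Il10, Mcm6 17, D2hgdh 103, Thap4 107, Ramp1 152 and Ap1s3 253.

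The genes beside Il10 did not pass. The 5 nearest tested genes on one side were Il20, Il24, Fcmr, Pigr and AA986860, and those on the other were Mapkapk2, Dyrk3, Eif2d, Rassf5 and Ikbke. Il20 and Il24 encode cytokines of the IL-10 family, Fcmr and Pigr encode receptors for immunoglobulin M, and Ikbke encodes a kinase of interferon signalling. All 10 overlapped between the groups and lay between -0.28 (Fcmr) and 0.50 (Dyrk3), with adjusted p from 0.834 to 0.988 in limma. Il20, Il24, Pigr and AA986860 were dim, with no signal above 91.8. Whether the differences along the chromosome came from the loss of IL-10 or from DNA that was inherited with the altered allele cannot be told apart with these labels.

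**Figure D3:**
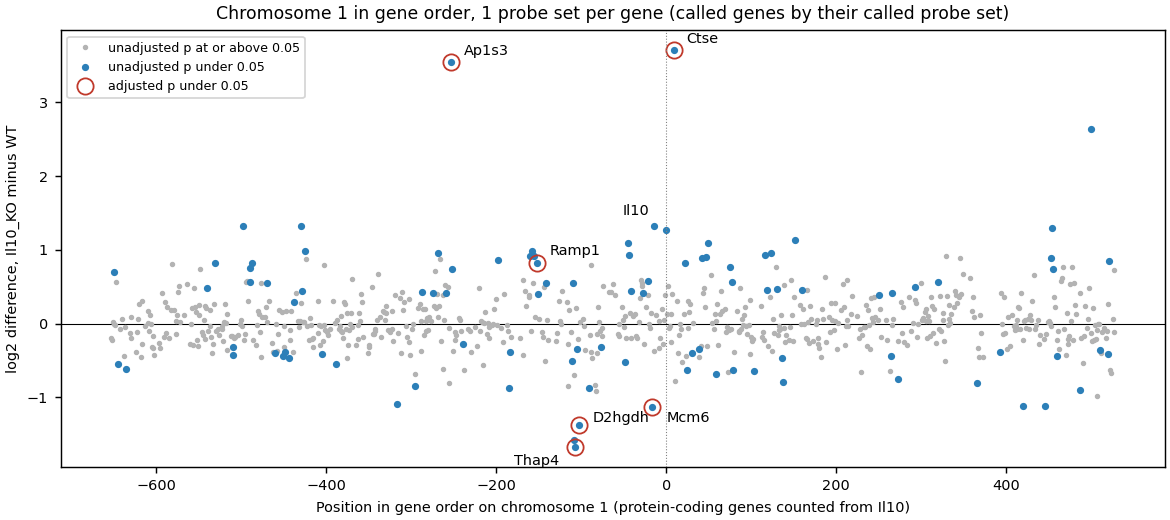
Log2 difference of Il10_KO minus WT for the tested genes of chromosome 1, 1 point per gene, placed by the number of protein-coding genes from Il10 (vertical dotted line). Coloured points have an unadjusted p under 0.05, and circles mark the 6 genes that passed after adjustment, from Ap1s3 (253 genes away) to Ctse (9 genes away).

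The IL-10 pathway itself was measured on 16 genes, and 0 passed with the probe set of highest mean signal. Of these 11 lay above 0 and 5 below, with a median of 0.167 (0.111 without WT replicate 3), where 49.7% of all genes lay above 0 and 50.3% below. In DKO against Ebi3_KO 7 of the 16 lay above 0, with a median of -0.0576 (0.0358 over all probe sets). At an unadjusted p under 0.05 in Il10_KO against WT stood 3 higher genes (the share of all genes was 4.61% higher and 3.81% lower). These were Socs3 (0.79), Zfp36, whose protein degrades cytokine mRNA (1.09 ± 0.275, 13133, 7346 and 10924 in Il10_KO, against 4557, 5731 and 4184 in WT), and Il1rn, which encodes the natural antagonist of the IL-1 receptor (0.80 ± 0.315, or 0.46 without Il10_KO replicate 3). Zfp36 read 0.71 without WT replicate 1. Etv3, a repressor induced by IL-10, read 0.50, a value that was 0.10 without WT replicate 3 and 0.82 without WT replicate 2. Among the 8 SOCS genes, whose median was -0.106 (-0.015 without Il10_KO replicate 1), Socs3 had the highest difference. The others were Socs4 (-0.36), Socs2 (-0.28), Socs5 (-0.15), Socs1 (-0.13), Socs7 (-0.08), Cish (0.09) and Socs6 (0.12).

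The list of effector cytokines and their regulators lay above 0 for the most part, with no member past the threshold. Of 14 measured genes 13 were above 0, 6 were higher and 1 lower at an unadjusted p under 0.05, and the median was 0.511 (0.697, 0.694 and 0.225 in batches 1 to 3). Ifng, the gene of interferon gamma, read 2513, 3589 and 2048 in Il10_KO, against 307, 1667 and 1009 in WT. The groups did not overlap, but WT replicate 1 was far below the other WT arrays, and the difference was 2.95 in that batch and 1.10 and 1.01 in the others (1.69 ± 0.347, adjusted p = 0.224, limma; 1.12 without that array). Csf2, the gene of GM-CSF, was dim, with 80.3, 68.2 and 118 in Il10_KO, against 8.8, 34.1 and 41.7 in WT (1.22, adjusted p = 0.443, limma). Il18rap, which encodes part of the receptor for IL-18, read 763, 455 and 687 in Il10_KO, against 374, 317 and 388 in WT (0.76, adjusted p = 0.566, limma). Tbx21, the transcription factor of type 1 helper cells, read 0.61. In DKO against Ebi3_KO 11 of the 14 were above 0, with a median of 0.273 (0.0358 over all probe sets).

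Genes of the type 17 programme and of chemokines also lay mostly above 0, in lists chosen with earlier results of these data known. The type 17 list holds Il17re and Tmem176a, which had passed, so it is no separate support for them. Of 12 genes of the type 17 programme 8 lay above 0, with a median of 0.35, and the 3 at an unadjusted p under 0.05 were those of Tmem176b, Il17re and Tmem176a. That median was 0.156 without Il10_KO replicate 1 and 0.214 without Il10_KO replicate 3. In DKO against Ebi3_KO 11 of these 12 lay above 0, with a median of 0.528 (0.0358 over all probe sets). Markers of gamma delta T cells and innate lymphoid cells, which can carry type 17 genes, were also mostly above 0, and their part in the result was not tested. Only 4 of the 10 listed markers were measured. Of the 4 measured 3 lay above 0, with a median of 0.384 (0.745, -0.132 and 0.00677 in batches 1 to 3, 0.185 without WT replicate 1 and 0.216 without Il10_KO replicate 3). Their summed signal was 952, 642.9 and 947.7 in Il10_KO, against 521.7, 488.8 and 607.8 in WT, with no overlap. Kit, the receptor gene for stem cell factor, read 431, 433 and 313 in Il10_KO, against 229.5, 230.3 and 260.1 in WT (0.65, adjusted p = 0.577, limma). In DKO against Ebi3_KO 4 of the 4 lay above 0, with a median of 0.506.

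Of 22 chemokines and chemokine receptors 16 lay above 0, 7 were higher and 1 lower at an unadjusted p under 0.05, and the median was 0.261. They included Ccl5 (0.54 ± 0.147) and Ccl4 (0.76 ± 0.218), chemokines that attract leukocytes, the homing receptor gene Cxcr6 (0.90 ± 0.249) and Cxcl10, an interferon-induced ligand (1.22 ± 0.361, or 0.61 without WT replicate 1). The lower one was Ccl17, a chemokine made by dendritic cells and named here after its values were seen, which was dim (18.7, 11.3 and 27.3 in Il10_KO, against 24.5, 58.9 and 108.2 in WT, -0.99). Genes of the interferon response had no steady direction. Here 10 of 36 lay above 0, 1 was higher at an unadjusted p under 0.05, and the median was -0.0952. It was -0.39 in batch 1 but 0.113 and 0.139 in batches 2 and 3. It lay above 0 without WT replicate 1 (0.0771) or Il10_KO replicate 1 (0.0131), and was -0.243 without WT replicate 3, -0.185 without Il10_KO replicate 2 and -0.0113 without Il10_KO replicate 3.

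Of the 8 cell type marker lists, those of CD8 T and NK cells, dendritic cells and B cells lay mostly above 0 alongside these cytokines. Their part in the result was not tested. In the list for CD8 T and NK cells 14 of 15 markers were above 0 (median 0.427, 4 higher at an unadjusted p under 0.05), led by Klrk1, the gene of the activating receptor NKG2D. Klrk1 read 145, 86.9 and 248 in Il10_KO, against 62.3, 6.5 and 112 in WT (1.35, adjusted p = 0.306, limma). The summed signal of the 15 ran from 4734 to 15560 in Il10_KO, against 3544 to 12250 in WT. All 10 dendritic cell markers were above 0 (median 0.464, or 0.206 without Il10_KO replicate 3), with sums of 11110 to 40280 in Il10_KO, against 7137 to 29650 in WT. H2-Ab1 (0.96) and Cd74 (0.73), of the antigen-presenting machinery, stood among them. Without WT replicate 1 these read 0.53 and 0.47, and H2-Ab1 read 0.63 without Il10_KO replicate 3. Of 9 B cell markers 7 were above 0, with sums of 1963 to 11400 in Il10_KO, against 2706 to 8059 in WT, and a median that was 0.89, -0.598 and 0.735 in batches 1 to 3 and, without 1 array, -0.0771 (WT replicate 1), 0.108 (Il10_KO replicate 3), 0.744 (Il10_KO replicate 2) and 0.849 (WT replicate 2). In both groups the batch 3 arrays had the highest sums of these 3 lists.

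The other marker lists did not lie above 0 in the same way. Of 7 plasma cell markers 4 lay above 0 (median 0.0492, and -0.0794 to 0.38 without 1 array), with sums of 11390 to 15630 in Il10_KO, against 8435 to 13700 in WT. Of 5 markers of erythroid cells and platelets 1 lay above 0 (median -0.193), with sums of 674.9 to 1085 in Il10_KO, against 774.7 to 1106 in WT. Of 10 markers of conventional CD4 T cells 7 lay above 0 (median 0.112, 0.222 without WT replicate 1 and -0.02 without WT replicate 2). The list includes Cd4 and Cd3e, which Tregs also carry, so it does not set conventional cells apart from Tregs. The median of the list was -0.0701, 0.341 and -0.15 in batches 1 to 3. Its sums did not overlap, at 51050, 52420 and 51010 in Il10_KO, against 50220, 44260 and 50270 in WT. They were close in batches 1 and 3, and the wide gap in batch 2 came with a low WT array. Of the markers of all 8 lists, Hba-a1, a haemoglobin gene, was the 1 that stayed below the signal filter on all 6 arrays.

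Markers of neutrophils and monocytes were mixed. Of 15 genes 10 lay below 0 and 5 above, and 5 were lower and 1 higher at an unadjusted p under 0.05. The median was -0.248, and it was -0.0862, -0.801 and -0.0231 in batches 1 to 3. Without 1 array it was -0.471 (Il10_KO replicate 1), -0.15 (WT replicate 2), -0.14 (WT replicate 1) or 0.0805 (Il10_KO replicate 2). Camp, the gene of cathelicidin, read 29.2, 38.3 and 563 in Il10_KO, against 221, 176 and 965 in WT (-1.60, adjusted p = 0.176, limma). Mpo, the gene of myeloperoxidase, read -1.07. The higher one was Mmp9, a matrix metalloproteinase gene named here after its values were seen, which read 434.5, 367.1 and 509.8 in Il10_KO, against 192.7, 254.2 and 289.9 in WT, without overlap (0.79, adjusted p = 0.56, limma). The summed signal of the 16 markers on the array was 10620, 6703 and 74590 in Il10_KO, against 10760, 14810 and 59610 in WT. Batch 3 held by far the most in both groups, and there the Il10_KO sum was the higher one. In DKO against Ebi3_KO 14 of the 15 lay above 0, with a median of 0.665 (0.0358 over all probe sets).

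Genes of proliferation lay lower in Il10_KO. Of 36 measured genes 30 were below 0, 13 were lower and 0 higher at an unadjusted p under 0.05, and the median was -0.35 (-0.48, -0.553 and -0.291 in batches 1 to 3). Mki67, the marker of cycling cells, read 1015, 1249.7 and 1454 in Il10_KO, against 1981, 2071 and 2017 in WT (-0.71 ± 0.199, adjusted p = 0.435, limma). The WT arrays were close together and all above the Il10_KO arrays. Ccna2, the gene of cyclin A2, read 246, 321 and 266 in Il10_KO, against 624, 509 and 468 in WT (-0.89, adjusted p = 0.388, limma). Cenpf, of the kinetochore, and Bub1b, of the mitotic checkpoint, read -0.90 and -0.94. No gene of this list passed. In DKO against Ebi3_KO the median of the same 36 genes was 0.119 (0.0358 over all probe sets) and 26 of them lay above 0. Mki67 there read 2696, 2141 and 2437 in DKO, against 1154, 2040.3 and 2237 in Ebi3_KO.

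**Figure D4:**
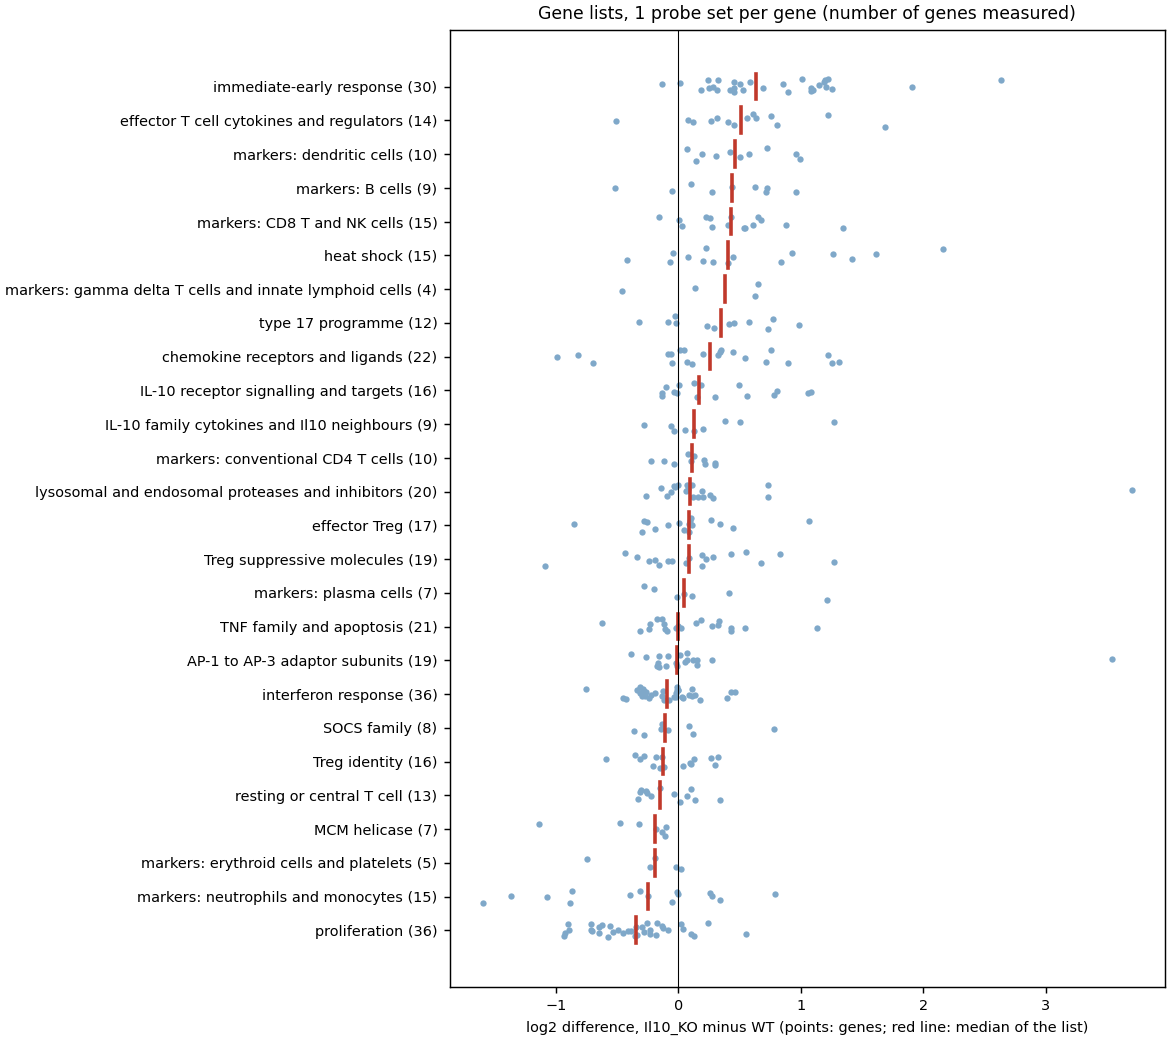
Log2 difference of Il10_KO minus WT for the measured genes of 26 lists, 1 point per gene, with the median of each list as a red line and the number of genes in brackets. Lists are ordered by median, from the immediate-early response (0.636) at the top to proliferation (-0.35) at the bottom, and Ctse and Ap1s3 stand alone at the right of their lists.

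Treg identity and suppression showed no common direction. Of 16 identity genes 7 lay above 0 and 9 below (median -0.125, and -0.426, -0.1 and 0.183 in batches 1 to 3), and the 2 with an unadjusted p under 0.05 were lower. They were Gpr83, a neuropeptide receptor typical of Tregs (-0.59 ± 0.232), and Ikzf4, which encodes the Foxp3 partner Eos (-0.35 ± 0.148). Without WT replicate 1 they read -0.21 and -0.20, and Gpr83 read -0.92 without WT replicate 2. Each of the 6 arrays moved the median of the identity genes by over 1.5 times, within a range of -0.26 (without Il10_KO replicate 3) to -0.0111 (without Il10_KO replicate 1). Of 19 suppressive molecules 11 lay above 0 (median 0.0876, or 0.0482 without Il10_KO replicate 3, 0.14 without WT replicate 1 and 0.156 without WT replicate 2). Gzmb, the gene of granzyme B, read 946, 708 and 1071 in Il10_KO, against 3067, 2169 and 1072 in WT (-1.09, adjusted p = 0.61, limma). The batch 3 arrays were nearly equal, and the difference was -0.59 without WT replicate 1 and -1.76 without WT replicate 3. Lgals1, the gene of galectin 1, read -0.43 and Penk, an opioid precursor gene induced in Tregs, 0.55 (0.25 without Il10_KO replicate 3).

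The largest list median belonged to immediate-early genes, whose transcription starts very soon after a T cell is stimulated or stressed. Of 30 genes 29 lay above 0 and 17 were higher at an unadjusted p under 0.05, with a median of 0.636. This rested on WT replicate 1: the median was 1.58 in batch 1, 0.0952 in batch 2 and 0.255 in batch 3, and 0.139 without that array. Atf3, a stress-induced transcription factor, read 2919.9, 2457 and 1484 in Il10_KO, against 60.8, 1387 and 383 in WT (2.63, or 1.27 without WT replicate 1). Btg2 read 0.90 (0.54 without that array), Egr2 0.51 and Zfp36 1.09, and no gene of the list passed. The 15 heat shock genes, 12 above 0 with a median of 0.403, had a median of 0.955, 0.462 and -0.299 in the batches and 0.0122 without WT replicate 1, 0.222 without Il10_KO replicate 1 and 0.198 without Il10_KO replicate 2. Hspa1a, an inducible chaperone, read 22014, 19748 and 7307 in Il10_KO, against 585, 7442 and 7884 in WT (2.16, or 0.64 without WT replicate 1). In DKO against Ebi3_KO 10 of the 30 immediate-early genes lay above 0, with a median of -0.0901 (0.0358 over all probe sets). There 9 of the 15 heat shock genes lay above 0, with a median of 0.056.

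**Figure D5:**
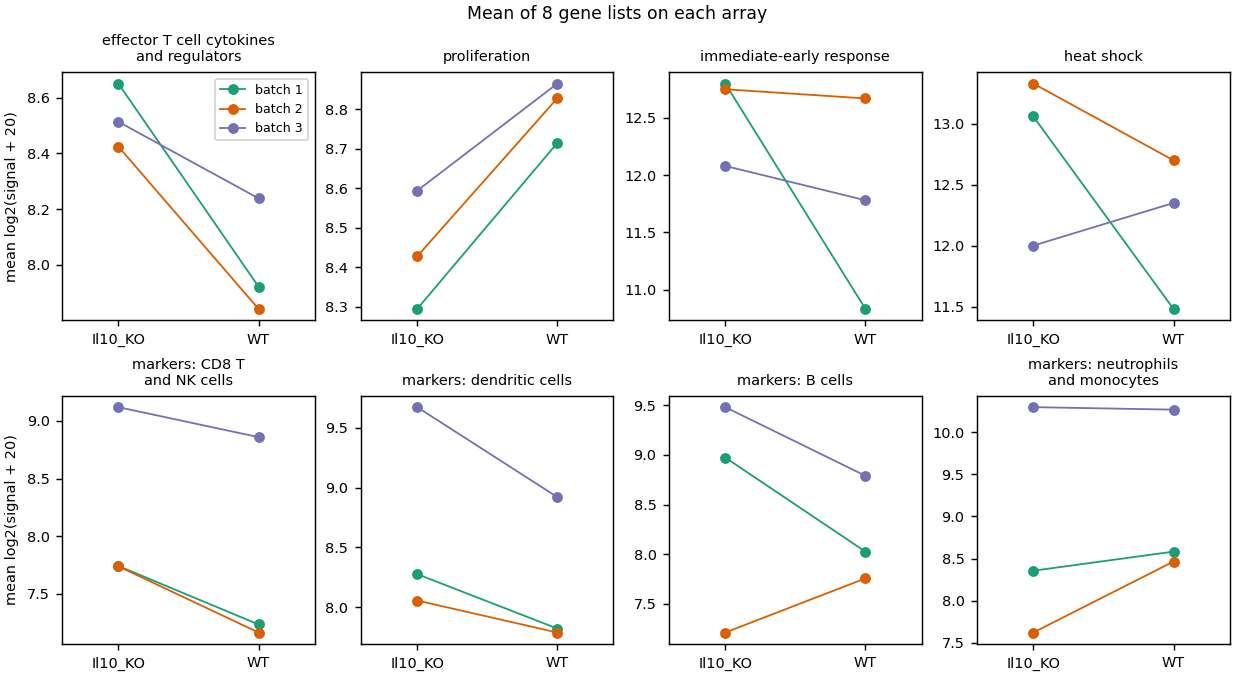
Mean log2(signal + 20) of 8 gene lists on each Il10_KO array (left of each panel) and WT array (right), with lines joining arrays of 1 batch. The proliferation mean is lower and the effector cytokine mean higher in Il10_KO in all 3 batches, while the immediate-early and heat shock means are lowest on the WT array of batch 1 (10.83 and 11.48).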

How the data were processed

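Affymetrix arrays of Treg RNA were deposited as 1 table of 12 arrays (4 genotypes, 3 batches). As deposited by the authors, each value is a natural log of signal + 20, as the numbers themselves show, since the labels give no scale. MAS5 and Partek 6.4 are the tools in the submitters' processing notes. On every array the signal so recovered had a trimmed mean of 500 (2% trimmed at each end). The deposited values were turned into log2(signal + 20), with no further normalization. Of 45101 probe sets, 64 controls were left out, as were 13802 that reached the 40th percentile of signal on fewer than 3 arrays. Gene names and gene order came from the array annotation and RefSeq (GRCm38.p6), with 34741 of the 34945 probe sets of 1 symbol matched to the reference. Those with several symbols (932) or none (9160) were tested unnamed.

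All 12 arrays were fitted in limma 3.58.1 (R 4.3.3; lmFit, eBayes with trend) by genotype with the replicate number, which is the labelled batch, as a block (6 residual degrees of freedom). P-values were adjusted over the 31235 probe sets by the Benjamini-Hochberg method at 0.05. Fold changes are on the signal + 20 scale, which understates the change of dim genes. After removal of genotype means, arrays of the same number correlated at 0.325 to 0.664 (18 pairs), and arrays of different numbers at -0.531 to -0.0204 (36 pairs). Gene lists used 1 probe set per gene, that of highest mean signal. The fit was tested on simulated data with 200 changed probe sets. With the block it called 46% of those changed by a log2 of 1 and 86% of those changed by 2. Of its 140 calls 8 were false. Without the block it called 0% and 31%. The simulated arrays held batch effects and independent noise with the spread of the blocked fit. These shares therefore need not hold for the real arrays. The members and lists were chosen with earlier results of these data known.

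Genes named were Il10, Ebi3, Foxp3, Ctla4 and Il2ra, every gene past the threshold, those of smallest p up to 14 in each direction, up to 4 of smallest p in each list, the 5 tested genes on each side of Il10, and all SOCS, MCM and AP-1 small subunit genes. Alternatives were the fit without the block, the 6 arrays alone, other filters and offsets, quantile normalization, eBayes without trend, and leaving out arrays or batches. Sequences are from RefSeq (GRCm38.p6).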

Additional observations from a re-analysis of the deposited data

How the results depend on the processing

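The count of 12 calls became 2, in each case Ctse and Ap1s3, with no replicate block, with the 6 arrays alone, and with eBayes without trend. It was 9 with no filter, 12 with the filter at the 60th percentile, 12 and 11 with offsets of 100 and 5, and 10 with quantile normalization. Leaving out arrays or batches gave 2 to 7 calls. The difference between both comparisons of Il10 loss gave 0 to 1 calls in these fits, the 1 without WT replicate 3. The cause of these shifts was not tested. The fits with arrays left out also held fewer samples. No named gene changed sign with the other offsets or with quantile normalization. The remaining settings with all arrays of both groups could not change a log2 difference in this balanced design. The filter at the 60th percentile kept 87 of 96 genes looked at. With arrays or batches left out 18 genes changed sign, none of which had passed. Their ranges were -0.63 to 0.27 for AA986860, -0.19 to 0.25 for Ap1s2, -0.10 to 0.19 for Cish, -0.11 to 0.47 for Ctla4, -0.14 to 0.99 for Dyrk3, -0.0601 to 0.23 for Ebi3, -0.70 to 0.25 for Fcmr, -0.23 to 0.0231 for Foxp3, -0.27 to 0.97 for Il20, -0.33 to 0.47 for Il24, -0.31 to 0.30 for Il2ra, -0.23 to 0.0277 for Mcm4, -0.20 to 0.0697 for Mcm5, -0.21 to 0.77 for Pigr, -0.19 to 0.0627 for Rassf5, -0.55 to 0.13 for Socs1, -0.29 to 0.0723 for Socs5 and -0.29 to 0.0793 for Socs7. The signal over background limits the dim probe sets, such as those of Gin1, Csf2 and Klrk1.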
